A study of Mus musculus with 4 samples.

Results

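The genes described here are 40 cell cycle genes that mark dividing cells, namely genes of DNA replication, of the G1-S and G2-M transitions, and of the chromosomes, kinases and spindle of mitosis. They were chosen by name, as the non-control probes of a mouse cochlear array that carry 1 of these gene names. All 40 had a probe, with 53 probes among the 39429 on the array, and 34 had a probe that at least 1 of the 4 arrays measured well above background, as had 21942 of the 30028 genes on the array. Where a gene had several probes, the brightest was used. Cdc6, Ccne2, Bub1, Ttk, Cenpf and Kif11 were not well above background on any array and have no value below.

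Cochlear RNA was taken from B6J mice aged 5 weeks in 4 groups, with 8 per group (4 females and 4 males, pooled) and 1 Agilent array of Cy3-labelled RNA for each pool. The groups were untreated wild-type mice, wild-type mice given 50 μg/kg of diphtheria toxin (DT) 7 days before dissection, untreated Prestin-hDTR mice (labelled OHC-TRECK) and Prestin-hDTR mice given the same DT. Prestin-hDTR mice of a single transgenic line carry a modified human heparin-binding EGF-like growth factor, which serves as the DT receptor, under a promoter fragment of prestin (Slc26a5), a gene of the outer hair cells (OHCs), so that DT removes the OHCs. Wild-type mice lack that receptor, and the untreated groups received no DT. Each group has 1 array, so no difference below has a replicate check and no p-value is given. The 4 arrays were scaled by their 75th percentile, and the share of probes well above background was 62.2% to 70.6%. Cochlear genes were present, with all 8 genes of a list of cochlear markers measured. The median log2 ratio of 7 OHC markers after DT was -2.37 in Prestin-hDTR mice and 0.16 in wild-type mice.

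A dividing cell copies its DNA in S phase, when the MCM helicase opens the origins and enzymes such as ribonucleotide reductase supply the nucleotides. It then enters mitosis under the kinase Cdk1 and its A and B cyclins, and the anaphase-promoting complex destroys those cyclins at the exit. Genes of S phase are commonly driven by E2F factors, and genes of mitosis by complexes that read a cell cycle homology region (CHR) and by NF-Y, which binds CCAAT boxes. Adult cochlear hair cells and supporting cells of mammals do not normally divide, whereas the blood-forming cells of bone marrow divide throughout life.

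Promoters of 4 of the genes are shown to set the 2 classes side by side, since the classes differed in their array values. They are the replication genes (Mcm7, Mcm5) and the mitosis genes (Cdk1, Top2a) with the most kinds of searched motif and, among equals, the most motifs, with Mcm5 and Mcm6 tied, each running from 250 bases before to 30 bases after the start of transcription, 5′ to 3′ on the strand of the gene, from RefSeq with the build GRCm38.p6. Capitals mark E2F motifs (TTTGGCGC, TTTCCCGC or TTTCGCGC), CHR motifs (TTTGAA or TTCGAA) and CCAAT, each searched on both strands.
Mcm7, chr5:138171854-138172133, minus strand: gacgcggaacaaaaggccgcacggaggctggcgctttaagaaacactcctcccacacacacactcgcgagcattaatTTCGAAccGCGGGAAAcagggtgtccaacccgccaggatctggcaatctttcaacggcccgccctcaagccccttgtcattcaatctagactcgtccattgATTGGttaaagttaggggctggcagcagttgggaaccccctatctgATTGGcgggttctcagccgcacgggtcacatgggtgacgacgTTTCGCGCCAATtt
Mcm5, chr8:75109259-75109538, plus strand: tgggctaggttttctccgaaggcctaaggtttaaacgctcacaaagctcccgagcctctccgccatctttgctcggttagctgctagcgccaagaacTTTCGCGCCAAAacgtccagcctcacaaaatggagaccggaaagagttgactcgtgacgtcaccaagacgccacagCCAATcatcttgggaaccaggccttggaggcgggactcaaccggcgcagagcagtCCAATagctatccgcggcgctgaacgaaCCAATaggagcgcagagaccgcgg
Cdk1, chr10:69352883-69353162, minus strand: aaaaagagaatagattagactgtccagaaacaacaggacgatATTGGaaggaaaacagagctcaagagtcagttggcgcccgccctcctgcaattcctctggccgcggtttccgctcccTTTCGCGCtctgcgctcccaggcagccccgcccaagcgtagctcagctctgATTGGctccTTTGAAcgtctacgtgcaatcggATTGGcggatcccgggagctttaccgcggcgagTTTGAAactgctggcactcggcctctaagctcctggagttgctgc
Top2a, chr11:99024160-99024439, minus strand: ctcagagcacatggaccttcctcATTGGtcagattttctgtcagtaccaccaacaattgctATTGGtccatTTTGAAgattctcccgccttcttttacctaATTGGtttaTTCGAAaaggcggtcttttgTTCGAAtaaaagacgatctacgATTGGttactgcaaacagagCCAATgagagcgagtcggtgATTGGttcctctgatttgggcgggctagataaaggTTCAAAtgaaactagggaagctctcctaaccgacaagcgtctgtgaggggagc
The capital run near the end of the Mcm7 promoter is an E2F motif overlapping CCAAT. The first capital run of the Mcm5 promoter is a pair of overlapping E2F motifs on opposite strands. Another Mcm7 window, at a different start and not shown, held 0 E2F motifs, 0 CHR motifs and 1 CCAAT. The Top2a promoter held 4 CHR motifs, 6 CCAAT boxes and 0 of the E2F motifs searched. Top2a, which encodes the topoisomerase that untangles chromosomes, was measured well above background on the DT-treated arrays and on neither untreated array. The Mcm7 and Mcm5 signals differed little between the arrays, as given below.

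RefSeq promoters were found for 33 of the 40 genes, with 35 windows of 280 bases. An E2F motif lay in 5 of 13 windows of replication and G1-S genes and in 1 of 22 windows of G2-M and mitosis genes. That 1 window was the Cdk1 promoter shown, and the share over all 32851 windows was 1.73%. CHR motifs lay in 2 of the 13 windows of replication and G1-S genes and in 15 of the 22 windows of G2-M and mitosis genes, against 18.4% of all windows. CCAAT lay in 9 of 13 and 19 of 22 windows, against 36.1% of all. These are matches of letters and say nothing of whether a factor was bound. Birc5 and Nusap1 held 0 of the searched motifs, yet like Top2a were 2-fold or more higher after DT in both genotypes by the probe used. Hmmr held 1 CHR motif and 5 CCAAT boxes and had log2 ratios of 0.09 and 0.09. Whether the motifs go with the array values was not tested.

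In wild-type mice, DT-treated against untreated, 11 of the 32 cell cycle genes that could be compared were 2-fold or more higher (all genes: 1.57%) and 0 were 2-fold or more lower (all genes: 1.14%). Their median log2 ratio was 0.69, against -0.04 over all 20493 genes compared, and 30 of the 32 ratios were above 0. In Prestin-hDTR mice, DT-treated against untreated, 15 of 34 were 2-fold or more higher (all genes: 2.74%) and 0 were lower (all genes: 1.42%). Their median log2 ratio was 0.78, and 33 of the 34 ratios were above 0, among them that of Melk, whose DT-treated value was a background floor. Top2a, counted as higher in both genotypes, and Aurkb, counted in Prestin-hDTR mice, were not well above background in untreated mice. They entered those comparisons through the DT-treated array alone. Thus cell cycle genes stood higher in the DT-treated pool of both genotypes, whether or not the mice carried the DT receptor. More dividing cells and more RNA of these genes per cell cannot be told apart in such pools, and with 1 pool per group neither can DT treatment and the pool itself. Many of these genes were dim, and dim genes varied more. Among genes of mean log2 signal from -5 to -2, 2.39% in wild-type and 3.56% in Prestin-hDTR mice were 2-fold or more higher after DT. With another background correction (normexp), 7 genes were 2-fold or more higher in wild-type mice, without Ccnb1, Top2a, Nusap1 and Prc1.

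**Figure D1:**
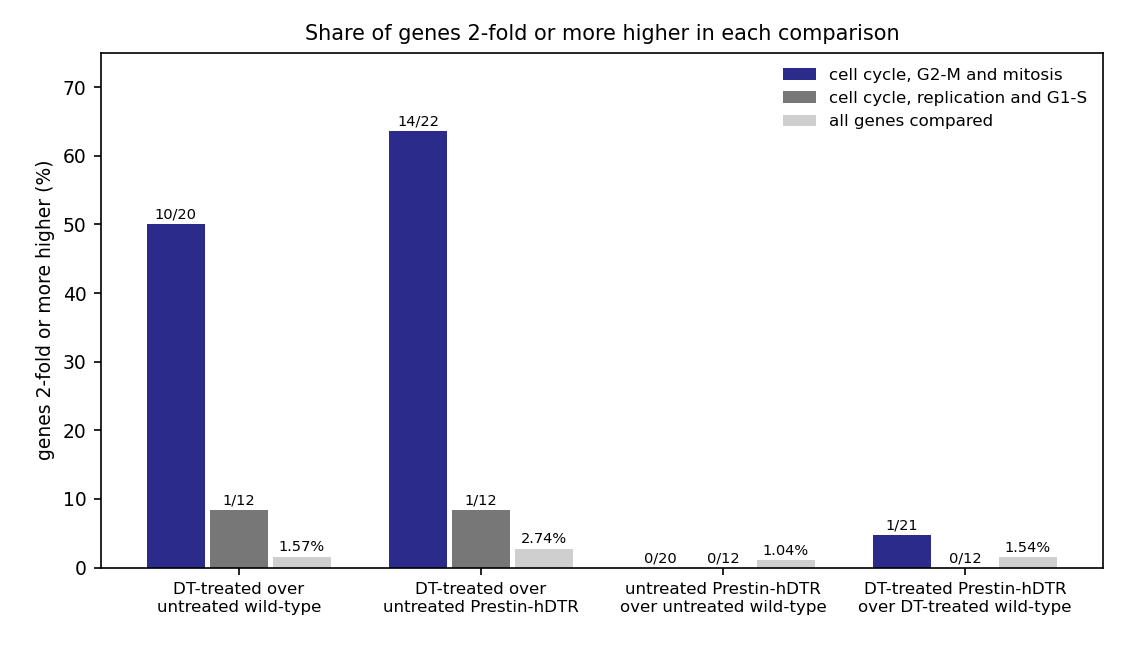
Bars show the percentage of genes 2-fold or more higher in each of the 4 comparisons (x axis), for the G2-M and mitosis genes, the replication and G1-S genes and all genes compared, with counts above the bars of the cell cycle genes and the percentage above those of all genes. Of the G2-M and mitosis genes, 10 of 20 were higher after DT in wild-type and 14 of 22 in Prestin-hDTR mice. These counts include Top2a (both genotypes) and Aurkb (Prestin-hDTR), which were not well above background in untreated mice. The bars of the comparisons between genotypes stay at or near 0.

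The replication genes showed the smallest differences. The values given here and below are log2 signals relative to the 75th percentile of the array, so that 0 is the signal of that percentile, and levels are not comparable between probes. Mcm7, a subunit of the replicative helicase, was at 0.66 untreated and 0.89 after DT in wild-type mice, and at 0.64 untreated and 0.82 after DT in Prestin-hDTR mice. Mcm5, another subunit, was at -1.34, -0.94, -1.46 and -1.21, in the same order of groups as all further sets of 4 values. Both were highest in DT-treated wild-type mice, by less than 1.5-fold over either untreated array. The 6 helicase subunits Mcm2 to Mcm7 had log2 ratios after DT of 0.03 (Mcm4) to 0.40 (Mcm5) in wild-type and 0.06 (Mcm2) to 0.25 (Mcm5) in Prestin-hDTR mice. Pcna, the sliding clamp of the DNA polymerases, was the closest to constant in wild-type mice, with values of 2.86, 2.84, 2.78 and 2.90. Rrm1, the large subunit of ribonucleotide reductase, had log2 ratios of 0.30 and 0.12, and Tyms, the enzyme that makes thymidylate, of -0.07 and 0.25. The error that the scanner software assigned to a log2 ratio after DT was 0.20 to 0.30 over the genes well above background on all 4 arrays. Most of these differences lie within or near it.

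Rrm2 stood apart from the other replication genes. It encodes the small subunit of ribonucleotide reductase, the subunit whose amount is known to limit the enzyme in S phase. Its log2 signal was -2.14 untreated and -0.59 after DT in wild-type mice, and at -2.60 untreated and -1.19 after DT in Prestin-hDTR mice. The DT-treated arrays were both above the untreated arrays, by 2.92-fold in wild-type and 2.65-fold in Prestin-hDTR mice. It was the only one of the 10 measured replication genes at 2-fold or more in either genotype.

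Of the G1-S regulators, Ccne1 (cyclin E1) had values of -0.68 and -0.50 in wild-type and -0.63 and -0.66 in Prestin-hDTR mice (untreated first), and its groups overlapped. E2f1, an activator of S phase genes, was at -4.39, -3.96, -4.61 and -3.66. Both DT-treated arrays were above both untreated arrays, with ratios of 1.35-fold and 1.94-fold, under the 2-fold threshold. Over the 12 measured replication and G1-S genes the median log2 ratio was 0.25 in wild-type and 0.16 in Prestin-hDTR mice.

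The G2-M regulators differed more. Ccnb2 (cyclin B2), a partner of Cdk1, was at -2.53 untreated and -1.20 after DT in wild-type mice, and at -3.27 untreated and -1.51 after DT in Prestin-hDTR mice. Its log2 ratios after DT were 1.33 and 1.77. Ube2c, the ubiquitin-conjugating enzyme of the anaphase-promoting complex, was at -3.62, -2.17, -4.31 and -2.35, which is 2.74-fold and 3.91-fold. A second Ube2c probe gave log2 ratios of 1.60 and 1.99, near the 1.45 and 1.97 of the probe used. Ccna2 (cyclin A2) was 2.36-fold and 2.80-fold higher after DT, and Ccnb1 (cyclin B1) 2.32-fold and 2.84-fold. These 4 genes were 2-fold or more higher in both genotypes, and the untreated Prestin-hDTR array was the lowest for each.

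Cdk1, the kinase that starts mitosis, was at -4.38, -3.53, -4.89 and -3.78, or 1.79-fold higher after DT in wild-type and 2.16-fold in Prestin-hDTR mice. Foxm1, a transcription factor of mitotic genes, was at -4.66, -4.14, -4.82 and -3.78, or 1.43-fold and 2.05-fold. Cdc20, an activator of the anaphase-promoting complex, was 1.17-fold and 1.74-fold higher. In all 7 G2-M regulators both DT-treated arrays were above both untreated arrays. The log2 ratio was larger in Prestin-hDTR than in wild-type mice for all 7, by 0.24 (Ccna2) to 0.58 (Cdc20), with no replicate to say whether these differences exceed the variation of pools.

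Among the mitotic kinases, Plk1, which acts at centrosomes and kinetochores, was at -2.27, -1.51, -2.52 and -1.95, Aurka, the kinase of the spindle poles, at -2.74, -2.10, -2.88 and -2.32, and Bub1b, of the spindle checkpoint, at -4.35, -3.73, -4.18 and -3.86. In each of these 3 genes both DT-treated arrays were above both untreated arrays, with ratios of 1.25-fold to 1.69-fold and none at 2-fold. Aurkb, the kinase of the chromosomal passenger complex, was detected well above background on 1 array, that of DT-treated Prestin-hDTR mice (-3.83). Its signal there was at least 5.89-fold above that of the untreated mice of this genotype and at least 3.12-fold above that of DT-treated wild-type mice. In such bounds the dim signal was raised to a floor, the dimmest signal that was still well above background on its array. A dim signal above the floor kept its own value, and a fold over it is not a bound. Melk, a kinase of dividing progenitors, was detected on 1 array, that of untreated Prestin-hDTR mice (-5.87), at the edge of detection, and is given no fold.

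Genes of the chromosomes and centromeres had median log2 ratios of 1.54 in wild-type and 1.74 in Prestin-hDTR mice over 5 genes. The first is the ratio of Top2a, whose untreated signal was not well above background. Mki67, which encodes the proliferation marker Ki-67, was at -2.35 untreated and -0.26 after DT in wild-type mice, and at -3.19 untreated and -1.14 after DT in Prestin-hDTR mice. It was 4.25-fold higher after DT in wild-type and 4.14-fold higher in Prestin-hDTR mice, and the values of the DT-treated arrays were both above those of the untreated arrays. A second Mki67 probe gave log2 ratios of 2.08 and 2.21, beside 2.09 and 2.05. Birc5 (survivin), a partner of Aurkb in the passenger complex, was at -1.83, -0.28, -2.46 and -0.72, or 2.95-fold and 3.33-fold higher after DT. A second, dimmer Birc5 probe, detected on each of the 4 arrays, gave log2 ratios of 1.24 and 0.59, and of 0.57 in untreated Prestin-hDTR against untreated wild-type mice, where the brightest gave -0.62. The 2-fold call of Birc5 in Prestin-hDTR mice and its order of arrays therefore rest on the brightest probe. Top2a was at -4.11 and -4.35 on the DT-treated wild-type and Prestin-hDTR arrays, 2.91-fold and at least 4.11-fold above the untreated array of the genotype. Its untreated wild-type signal (-5.65) was not well above background but lay above the floor, so the 2.91-fold is not a bound. Cenpe, a motor protein of kinetochores, was 1.77-fold and 2.06-fold higher, and Cenpa, the histone of centromeres, 1.67-fold and 1.69-fold. Thus the Mki67 signal was about as much higher after DT without the receptor as with it.

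The spindle genes were less uniform. Prc1, which bundles microtubules of the central spindle, was at -3.11, -2.08, -3.79 and -1.68, or 2.05-fold higher after DT in wild-type and 4.29-fold in Prestin-hDTR mice. Nusap1, a microtubule-binding protein, was at -4.32, -3.01, -4.62 and -3.48, or 2.48-fold and 2.20-fold. Kif20a, a kinesin of cytokinesis, was 1.91-fold and 2.54-fold higher. Tpx2, an activator of Aurka, was at -4.36, -2.58, -4.28 and -3.57, or 3.42-fold and 1.63-fold. A second, dimmer Tpx2 probe gave a log2 ratio of 0.59 in Prestin-hDTR mice and was not well above background in DT-treated wild-type mice, so the wild-type difference rests on 1 probe. Hmmr, a spindle protein that also binds hyaluronan, was at -2.78, -2.68, -2.96 and -2.87 and differed after DT by 0.09 on the log2 scale in both genotypes, the smallest ratio among the G2-M and mitosis genes in each.

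**Figure D2:**
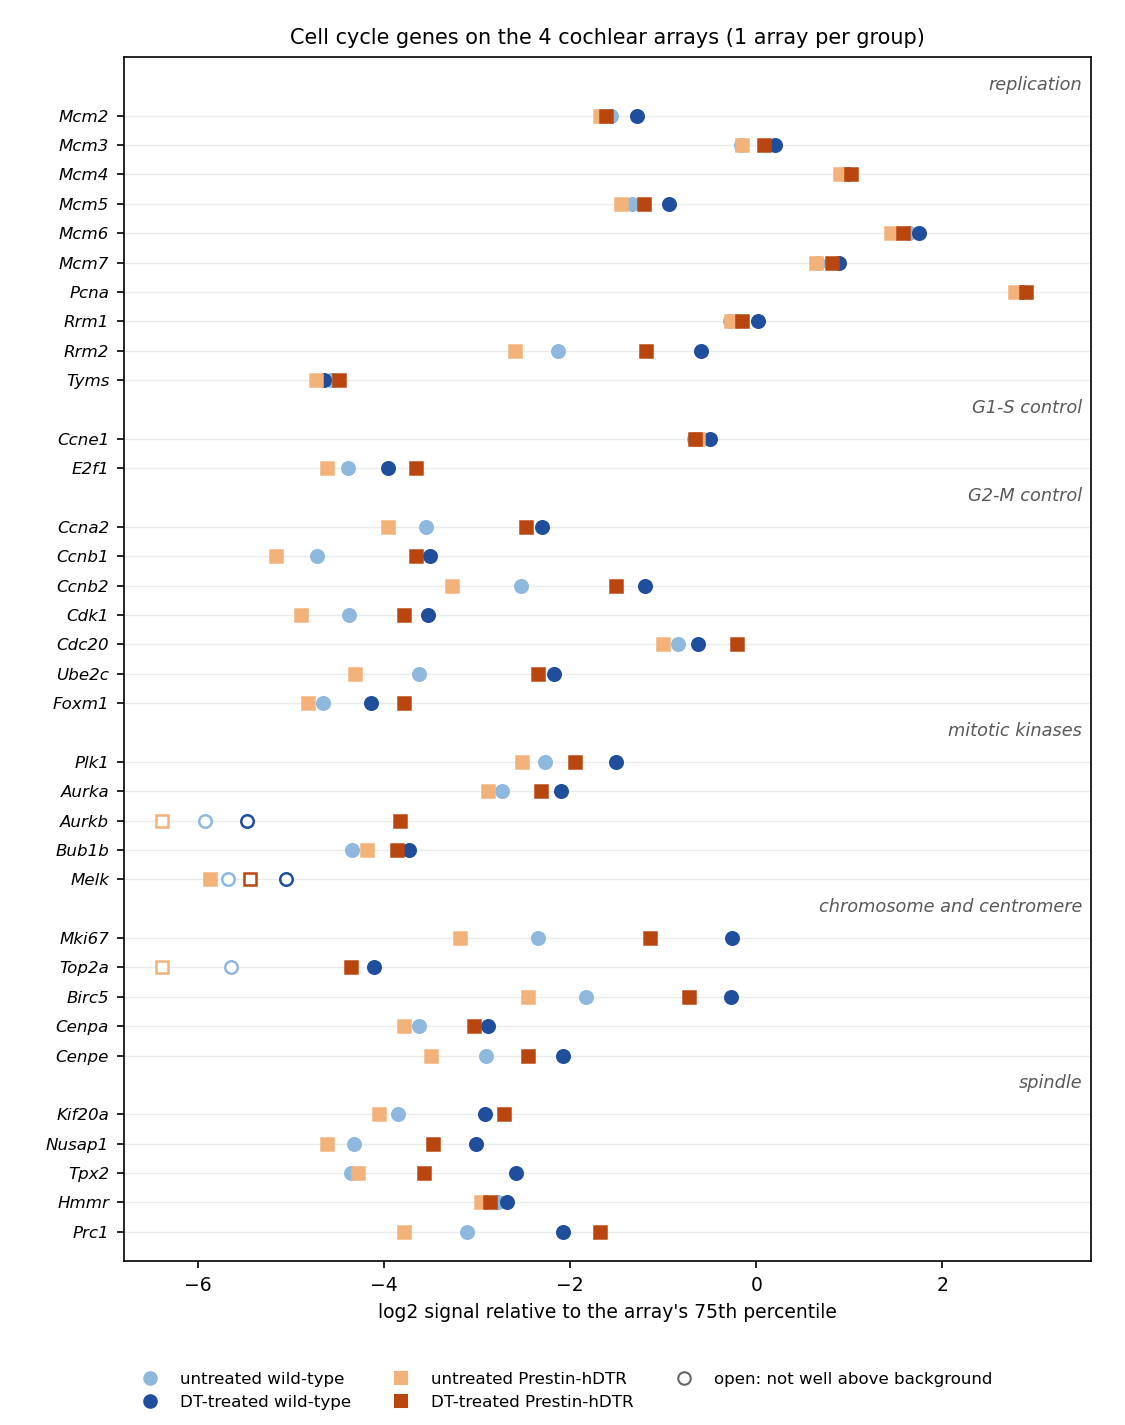
Each row is a cell cycle gene measured on at least 1 array, grouped by role, with its log2 signal relative to the array's 75th percentile on the x axis and 1 point per array (blue circles for wild-type, orange squares for Prestin-hDTR, dark for DT-treated, open for not well above background). Dark points lie to the right of pale points for most G2-M and mitosis genes, from Ccna2 to Prc1, while the points of Mcm2 to Mcm7, Pcna and Tyms nearly coincide.

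The order of the 4 arrays was shared by many of the genes. Of the 31 genes well above background on all 4 arrays, both DT-treated arrays were above both untreated arrays for 25 (all genes: 14.7%) and below both for 0 (all genes: 24.6%). The share among all genes of mean log2 signal from -5 to -2 was 14.5%. For 26 of the 31 genes the untreated Prestin-hDTR array was the lowest (all genes: 17.3%). The highest array was DT-treated wild-type for 23 genes (all genes: 15.8%) and DT-treated Prestin-hDTR for 8 (all genes: 33.5%). The full order from DT-treated wild-type through DT-treated Prestin-hDTR and untreated wild-type down to untreated Prestin-hDTR was found for 15 genes (all genes: 2.16%), among them Mki67, Ccnb2, Rrm2 and Ccna2. The order with the DT-treated arrays exchanged was found for 6 (all genes: 4.22%). The genes that were highest in DT-treated Prestin-hDTR mice included Prc1, Cdc20, Foxm1, Kif20a and E2f1.

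Between genotypes at the same treatment the differences were small. In untreated Prestin-hDTR against untreated wild-type mice, 0 of 32 genes were 2-fold or more higher (all genes: 1.04%) and 0 were 2-fold or more lower (all genes: 2.44%). The median log2 ratio was -0.18 and 27 of the 32 ratios were below 0, with the largest for Mki67 (-0.85) and Ccnb2 (-0.75). In DT-treated Prestin-hDTR against DT-treated wild-type mice, 1 of 33 genes (Aurkb) was 2-fold or more higher (all genes: 1.54%) and 0 were 2-fold or more lower (all genes: 1.96%). The median was -0.17 and 24 ratios were below 0, down to -0.88 for Mki67 and -0.99 for the single Tpx2 probe. Mki67 was therefore lower in Prestin-hDTR mice by about the same amount with and without DT.

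The DT effect itself was compared between the genotypes, as the log2 ratio in Prestin-hDTR minus that in wild-type mice. Its median over the 34 genes was 0.06, against 0.03 over all genes. The median was 0.23 over the 22 G2-M and mitosis genes and -0.09 over the 12 replication and G1-S genes. For Mki67 the difference was -0.04, for Rrm2 -0.14 and for Birc5 0.18. Of the 31 genes well above background on all 4 arrays, 2 differed by 1 or more on the log2 scale (all genes: 2.52%), Prc1 with 1.07 and Tpx2 with -1.07. Across the 31 genes the ratios of the genotypes, which share no array, had a Pearson correlation of 0.83, and 28 had the same sign. Across all 18247 genes well above background on all 4 arrays the correlation was 0.19, and across 10 erythroid genes it was 0.90 with 10 of the same sign. These points are genes of 1 slide and are not independent, so no p-value is given.

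**Figure D3:**
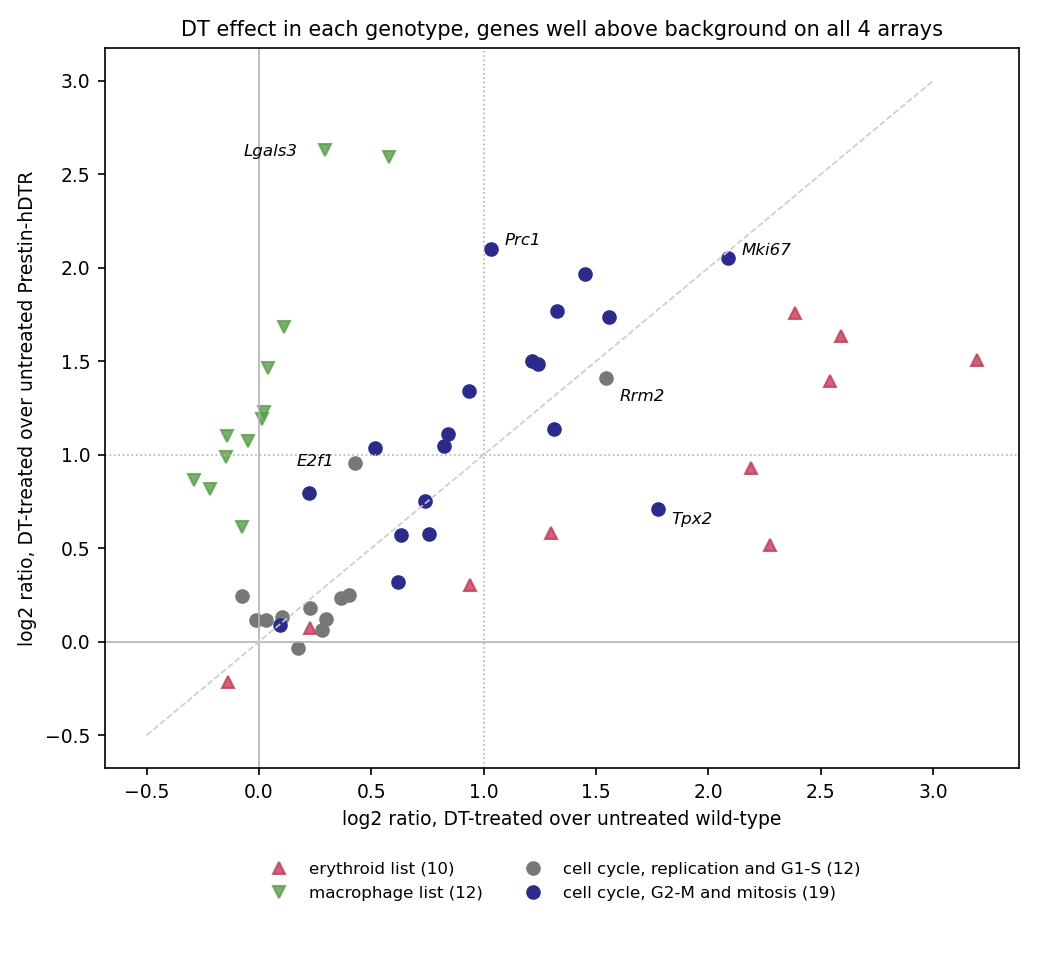
Each point is a gene well above background on all 4 arrays, with its log2 ratio of DT-treated over untreated wild-type mice on the x axis and of DT-treated over untreated Prestin-hDTR mice on the y axis (dashed: equal ratios, dotted: 2-fold). The cell cycle genes lie on both sides of the dashed line, with Mki67 (2.09 and 2.05) near it. Prc1 (1.03 and 2.10) and Tpx2 (1.77 and 0.71) lie well off it on opposite sides. The erythroid genes lie mostly to the right of the line, and the macrophage genes at 0.58 or less on the x axis and at 0.61 or more on the y axis.

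Only 57 of the 20001 genes in both comparisons were 2-fold or more higher after DT in both genotypes (0.285%), and 10 of them were cell cycle genes described here, which is 17.5% of the 57 and 31.25% of the 32 that could be scored. They were Rrm2, Ccna2, Ccnb1, Ccnb2, Ube2c, Mki67, Top2a, Birc5, Nusap1 and Prc1. With detection required on all 4 arrays, 39 of 18249 genes passed in both genotypes, among them 9 of 31 cell cycle genes, without Top2a. With normexp background correction 24 genes (0.120%) were 2-fold or more higher in both genotypes, and 6 of them were cell cycle genes, without Ccnb1, Top2a, Nusap1 and Prc1. The 57 genes held 4 of a further list of mitosis genes (Cdca3, Cdca5, Cdkn3 and Pbk), 2 of a further list of replication genes (Tk1 and Uhrf1), 6 erythroid genes and 3 late neutrophil genes. Of the erythroid genes in both comparisons this was 46.2% (6 of 13, or 10.5% of the 57), of the late neutrophil genes 37.5% (3 of 8, or 5.26%), of the further mitosis genes 11.4% (4 of 35, or 7.02%) and of the further replication genes 9.52% (2 of 21, or 3.51%).

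The further lists of cell cycle genes moved less than the genes above. Of 22 measured replication genes, 3 were 2-fold or more higher after DT in wild-type mice (all genes: 1.57%). In Prestin-hDTR mice 2 of 21 were (all genes: 2.74%), and the medians were 0.14 and 0.13 on the log2 scale. Tk1, the thymidine kinase of S phase, had log2 ratios of 1.30 and 1.61, and Uhrf1, which maintains DNA methylation at replication, of 1.04 and 1.15. Orc6, a subunit of the origin recognition complex, was at 0.82, 0.82, 0.89 and 0.88. Clspn, a checkpoint protein, was well above background in DT-treated wild-type mice alone. Of 36 mitosis genes, 5 were 2-fold or more higher in wild-type (all genes: 1.57%) and 7 in Prestin-hDTR mice (all genes: 2.74%). Their medians were 0.34 and 0.35, and 1, Nek2, was 2-fold or more lower in Prestin-hDTR mice (all genes: 1.42%). Pbk, a mitotic kinase, was at least 2.52-fold and at least 7.39-fold higher after DT.

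Most regulators of cell cycle entry and arrest differed little after DT. The D cyclins with the kinases Cdk4 and Cdk2 (Cdk6 was undetected) had medians of 0.12 and 0.14 with 0 of 5 genes at 2-fold in either genotype. Over all genes 1.57% and 2.74% were higher and 1.14% and 1.42% lower, so 0 of 5 is near the share of all genes. Ccnd1 (cyclin D1) was at -0.07, -0.23, -0.20 and 0.63, so DT-treated Prestin-hDTR mice stood above the other 3 arrays. The 14 measured CDK inhibitors, pocket proteins and p53 targets had medians of 0.10 and 0.18. In wild-type mice 0 were 2-fold or more higher (all genes: 1.57%) and 1 (Trp53) lower (all genes: 1.14%). In Prestin-hDTR mice 1 (Gadd45a) was higher (all genes: 2.74%) and 0 lower (all genes: 1.42%). Gadd45a, a stress response gene, was 2.22-fold higher after DT in Prestin-hDTR and 1.08-fold in wild-type mice. Trp53, which encodes p53, was at -3.83, -4.94, -4.89 and -4.65, low on all arrays. It was 2.16-fold lower after DT in wild-type mice and 1.19-fold higher after DT in Prestin-hDTR mice. Untreated Prestin-hDTR mice were 2.09-fold below untreated wild-type mice, so the wild-type difference rests on the untreated wild-type array standing above the others. Ccnd1 and Gadd45a thus differed from Mki67, which was higher in both DT-treated pools.

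Marker lists of blood-forming cells and of macrophages were set beside the cell cycle genes, to ask which of them the cell cycle genes followed across the pools. Gata1, the master transcription factor of red cell precursors, was at -4.88 untreated and -2.22 after DT in wild-type mice, and at -6.09 (not well above background) untreated and -4.59 after DT in Prestin-hDTR mice. It was 6.30-fold higher after DT in wild-type and 2.82-fold in Prestin-hDTR mice, the latter over an undetected signal and not a bound. It was 5.15-fold lower in DT-treated Prestin-hDTR than in DT-treated wild-type mice. Like Mki67, Gata1 was highest in DT-treated wild-type and lowest in untreated Prestin-hDTR mice. Of the 14 erythroid genes, 12, 14, 11 and 12 were well above background on the 4 arrays in that order. After DT, 10 of 14 were 2-fold or more higher in wild-type mice (all genes: 1.57%), with a median log2 ratio of 1.99. In Prestin-hDTR mice 6 of 13 were (all genes: 2.74%), with a median of 0.93.

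The erythroid genes and the cell cycle genes parted in the comparison of the DT-treated pools. In DT-treated Prestin-hDTR against DT-treated wild-type mice, 9 of 14 erythroid genes were 2-fold or more lower (all genes: 1.96%), with a median of -1.25. Of 33 cell cycle genes 0 were 2-fold or more lower, and their median was -0.17. The DT effect was smaller in Prestin-hDTR than in wild-type mice for all 14 erythroid genes, with a median difference of -0.84. That median was 0.06 for the cell cycle genes, with 0.23 for G2-M and mitosis and -0.09 for replication and G1-S genes. Early granule genes of neutrophils, such as Mpo, were 2-fold or more lower in Prestin-hDTR mice for 4 of 5 genes in both the untreated and the DT-treated comparison. The shares over all genes were 2.44% and 1.96%, and the medians of the early granule genes -1.21 and -1.23. After DT, the early granule genes had medians of 0.55 in wild-type and 0.60 in Prestin-hDTR mice. The median difference of their DT effect between genotypes was 0.24. B lineage genes had a median of 0.67 after DT in wild-type and 0.16 in Prestin-hDTR mice. Late neutrophil genes had medians of 0.95 and 0.73 after DT, and of -1.34 and -1.30 in Prestin-hDTR against wild-type mice, untreated and DT-treated. The medians after DT in wild-type and Prestin-hDTR mice were 0.39 and 0.26 for megakaryocyte genes, 0.19 and -0.19 for osteoblast genes and -0.41 and 0.11 for Schwann cell genes.

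Macrophage genes had another pattern. Of 12 measured, 0 were 2-fold or more higher after DT in wild-type mice (all genes: 1.57%), with a median of -0.02. In Prestin-hDTR mice 8 were (all genes: 2.74%), with a median of 1.15. Lgals3, a galectin of activated macrophages, was at 0.38, 0.67, 0.14 and 2.77. Supporting cell genes had medians of -0.04 and -0.06 after DT. The mean-centred signal of the cell cycle genes had a median of -0.23, 0.43, -0.46 and 0.29 on the 4 arrays, that of the erythroid list of -0.53, 1.28, -0.74 and 0.15, and that of the macrophage list of -0.22, -0.23, -0.37 and 0.82. Both the cell cycle and the erythroid list were thus higher in each DT-treated pool than in the untreated pool of its genotype, and the part of marrow cells or macrophages in the cell cycle signal was not tested.

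**Figure D4:**
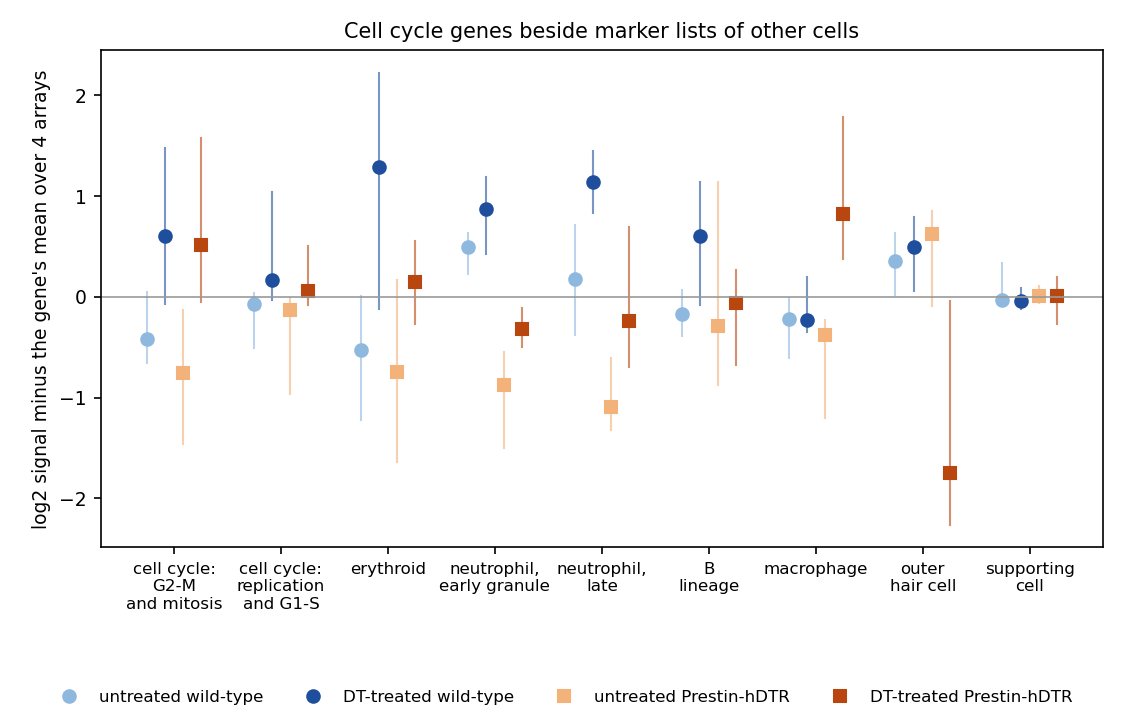
Points show, for each list (x axis) and array, the median over genes of the log2 signal minus the mean of that gene over the 4 arrays (y axis), and lines run from the lowest to the highest gene. The G2-M and mitosis genes were at 0.60 in DT-treated wild-type and 0.51 in DT-treated Prestin-hDTR mice, while the erythroid list was at 1.28 and 0.15 and the macrophage list at -0.23 and 0.82.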

How the data were processed

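Pooled cochlear RNA of 4 groups was measured on 1 Agilent 1-colour array each, all on 1 slide. The intensity that the authors deposited is the background-subtracted processed signal of Agilent Feature Extraction 11.5.1.1, per the submitters' processing notes, with no scaling between arrays. The table of scaled values deposited beside it holds that intensity divided by 1 constant per array. The methods of the study name a shift to the 75th percentile in GeneSpring and a 2-fold screen.

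Here control and outlier spots were left out, spots of a probe were averaged, signals were divided by the 75th percentile of the array, and log2 was taken. A probe flag held when it held for more than 0.5 of the spots. Genes were compared when either array measured them well above background, and called at 2-fold or more. Dim signals below the floor of their array were set to it, so their folds are bounds. Dim signals above the floor were kept, and their folds are not bounds. No test across arrays was made, since no group has a replicate, and precision is limited by their number; the median SD of repeated spots was 0.06 to 0.07 on the log2 scale.

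The cell cycle genes, the other lists (187 genes) and the brightness range were chosen with earlier results of these data known. Named genes are all 40 cell cycle genes, Gata1, and of each other list those with the largest and smallest ratios, with a few markers beside them; genes named from the 57 higher in both genotypes are those of the lists. One list gene was matched by its synonym. The steps were tested on simulated data. Python 3.11.15, numpy 2.4.6, pandas 2.3.3, matplotlib 3.10.9 and, for normexp with an offset of 50, limma 3.58.1 in R 4.3.3 were used. The count in both genotypes under the alternatives was added after seeing the data. The 9 alternatives changed the floor, filter, background correction, scaling, source, probe choice or fold. The qRT-PCR and histology were not analysed here.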

Additional observations from a re-analysis of the deposited data

Results flagged for a closer look

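Nek2, a centrosomal kinase of the further mitosis list, differed in opposite directions after DT in the genotypes. Its log2 ratio was 1.59 in wild-type mice (at least 3.02-fold higher) and -1.01 in Prestin-hDTR mice (at least 2.01-fold lower). It was well above background on 2 arrays, those of DT-treated wild-type mice and of untreated mice of the other genotype. With 1 array per group the difference between the genotypes was not tested.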

How the results depend on the processing

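Under the 9 alternatives, 109 summary values of the cell cycle genes were scored as kept and 12 as moved. A count was kept when it changed by up to 1.5 times, and a median when it moved by less than 0.0952. Counts, and medians within 0.0952 of 0, could not be scored as reversed, and 0 of the other medians were. The deposited scaled table gives the main values by construction, since it differs by 1 constant per array. Of the single-gene ratios, 515 kept their side of the 2-fold threshold and 9 no longer passed it. Without a detection filter, which brings in all 40 genes, the median log2 ratio after DT was 0.57 in wild-type and 0.95 in Prestin-hDTR mice and the difference between them 0.20, while the median over all genes shifted to 0.12 in Prestin-hDTR mice. The 0.95 is the difference between the floors of the Prestin-hDTR arrays (-5.44 and -6.39), at which undetected genes lie. With normexp background correction the medians were 0.54 and 0.66, and 7 in place of 11 genes were 2-fold or more higher in wild-type mice: Ccnb1, Top2a, Nusap1 and Prc1 no longer passed there, nor did Cdk1, Foxm1, Cenpe and Nusap1 in Prestin-hDTR mice, and 6 in place of 10 passed in both, a count added after seeing the data. With the mean over probes, the log2 ratio of Tpx2 in wild-type mice was 0.77, with the second probe at a value not well above background after DT. In DT-treated Prestin-hDTR against DT-treated wild-type mice, 0 genes were higher when detection on all 4 arrays was required, and 1 was lower with the percentile taken over probes well above background on all 4 arrays. At 1.5-fold, 18 of 32 genes were higher after DT in wild-type mice (all genes: 633 of 20493). In untreated Prestin-hDTR against untreated wild-type mice 6 of 32 were lower (all genes: 1009 of 21631). In the DT-treated comparison 3 of 33 were lower (all genes: 905 of 19519). With 1 array per group no array could be left out. No paired analysis was possible because each group has 1 array and the labels carry no replicate numbers. Signal over background limits Aurkb, Melk, Top2a, Gata1 and the 6 genes not detected.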
